A study of Homo sapiens with 6 samples.

Results

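The 10 genes described here encode AP-1 and early growth response factors, many of which cells switch on early when a growth or stress signal reaches the nucleus. They were taken by symbol from a count table of 31413 genes. They are the JUN family (JUN, JUNB and JUND), the FOS family (FOS, FOSB, FOSL1 and FOSL2), and 3 immediate early genes of other families (EGR1, IER2 and KLF6). All 10 had a single row. The libraries came from the prostate cancer cell line labelled C42 (commonly written C4-2, a derivative of LNCaP), grown in RPMI medium with serum. The group shNSD2 carried an shRNA against NSD2 (WHSC1), an enzyme that writes the H3K36me2 mark on chromatin. The group shCTR carried a control shRNA. Each group had 3 polyA-selected RNA-seq libraries, numbered 1, 2 and 3 for shNSD2 and 1, 2 and 4 for shCTR, and the title of the series links NSD2 to immune infiltration of prostate tumours.

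Both groups are a single cell line. The labels used here give no shRNA sequence, no time since knockdown, no time since the last change of medium, and no word on clones or pools. Nothing in them says that libraries came from separate cultures, so the spread behind each p-value is that between libraries and may be technical. In bulk RNA, a change in the level per cell and a change in the share of cells that express a gene cannot be told apart.

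AP-1 is a dimer of basic leucine zipper proteins. JUN proteins pair with each other or, more stably, with FOS proteins, whereas FOS proteins do not form stable dimers among themselves. The dimers bind the TRE, searched for below as TGANTCA with any base at N, and with ATF or CREB partners the CRE, spelled TGACGTCA. JUND is known as the constitutive member that restrains growth in many cells, JUN and FOSL1 are commonly linked to proliferation and invasion, and JUNB can oppose JUN. EGR1 is a zinc finger activator, often high in prostate cancer, that NAB1 and NAB2 hold in check. KLF6 is a zinc finger factor known as a candidate tumour suppressor in prostate, and IER2 is a small nuclear protein induced by growth factors.

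NSD2 transcript was at 85.3, 86.4 and 89.7 CPM (counts scaled to library size, with TMM factors) in the shNSD2 libraries, against 219, 223 and 200 CPM in shCTR libraries 1, 2 and 4. Total counts ran from 19412896 to 20665494 per library. The floor of 3 counts corresponded to 0.145 to 0.156 CPM and covers counting error only. All 7 luminal prostate markers examined were abundant, with a summed level of 9819 to 9993 CPM in shNSD2 and 10450 to 12250 CPM in shCTR, and KLK3 alone had up to 143938 counts. Of 4 leukocyte, 3 endothelial, 3 fibroblast and 3 basal markers, 7 had a row. The endothelial marker VWF had up to 157 counts and averaged 7.56 CPM in shNSD2 and 5.61 CPM in shCTR, while PECAM1 had at most 1 count. None of the other 5 exceeded 33 counts. The library shCTR 4 stood apart from its group. Its mean chi-square per gene, for which counting error alone gives about 1, was 42.7 against shCTR 1 and 20.4 against shCTR 2. Against shNSD2 libraries 1, 2 and 3 it was 29.1, 16.2 and 24.4. Member changes and list counts are therefore also given without shCTR 4. The pathway genes named as changed below kept direction and call in that fit.

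Promoters from RefSeq (GRCh38.p14) were found for 9 of the 10 members, all but FOSL1. The 250 bases before the RefSeq start are shown for the JUN family, whose members differed in their response. They are also shown for EGR1, a textbook target of serum response factor. Capitals mark matches, on either strand, to the CRE, to TGACATCA (a CRE with 1 changed base, the known site of autoregulation in JUN), to the serum response element, to the GC box GGGCGG and to the TATA box TATAAA.
JUN, chr1:58784048-58784297, minus strand: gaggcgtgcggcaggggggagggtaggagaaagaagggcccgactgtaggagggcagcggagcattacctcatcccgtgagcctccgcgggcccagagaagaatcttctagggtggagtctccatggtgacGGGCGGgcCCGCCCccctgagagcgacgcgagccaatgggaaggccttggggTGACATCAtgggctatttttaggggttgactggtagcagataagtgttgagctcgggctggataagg
JUNB, chr19:12791236-12791485, plus strand: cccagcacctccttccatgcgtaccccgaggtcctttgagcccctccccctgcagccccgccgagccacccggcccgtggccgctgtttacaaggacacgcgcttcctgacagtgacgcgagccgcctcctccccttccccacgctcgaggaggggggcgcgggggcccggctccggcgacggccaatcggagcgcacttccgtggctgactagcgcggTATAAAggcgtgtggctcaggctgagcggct
JUND, chr19:18281623-18281872, minus strand: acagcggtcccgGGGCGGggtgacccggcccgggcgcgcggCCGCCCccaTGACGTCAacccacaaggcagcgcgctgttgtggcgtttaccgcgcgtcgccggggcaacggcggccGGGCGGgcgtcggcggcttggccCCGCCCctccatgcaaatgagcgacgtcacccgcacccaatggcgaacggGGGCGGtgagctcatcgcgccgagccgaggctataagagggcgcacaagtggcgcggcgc
EGR1, chr5:138465229-138465478, plus strand: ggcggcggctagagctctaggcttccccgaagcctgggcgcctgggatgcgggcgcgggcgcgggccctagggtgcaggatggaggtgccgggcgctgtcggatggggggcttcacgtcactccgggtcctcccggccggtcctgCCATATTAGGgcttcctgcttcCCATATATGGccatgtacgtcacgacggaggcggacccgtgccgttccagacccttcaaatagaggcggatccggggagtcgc
The JUN window lies inside the first exon of JUN in GENCODE 29, which places the start further upstream than RefSeq. Of the windows searched but not shown, that of FOSL2 also lies inside its gene in GENCODE 29. Those of FOS, FOSB and KLF6 overlap their genes in part.

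Only the 250 bases before each start were searched, and only for the exact letters given. Sites further upstream and variant spellings were not sought. The TRE was found in 0 of the 9 promoters. It was in 6.57% of all 35116 RefSeq promoters of the same length and in 4.39% of the 15553 that belong to tested genes. The CRE occurred only in JUND among the 9, starting 200 bases before the start, in 1.65% of all promoters and in 2.32% of those of tested genes. TGACATCA occurred in JUN, 67 bases before the start, and in KLF6, against 2.38% of all promoters and 1.41% of those of tested genes. The serum response element occurred in EGR1 alone of the 9, at 2 places 105 and 83 bases before the start, in 1.16% of all promoters and in 1.08% of those of tested genes. The EGR1 motif GCGNGGGCG was in EGR1 itself and in KLF6, against 8.42% of all promoters and 12.8% of those of tested genes. The GC box was in 7 of 9 (all but JUNB and EGR1), against 42.6% of all promoters and 61.9% of those of tested genes, and 5 copies lay in JUND. The TATA box was in JUNB, FOS and FOSB, in 10.7% of all promoters and in 6.02% of those of tested genes. In KLF6, 1 GC box overlaps the EGR1 motif.

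In the shNSD2 libraries 4 of the 10 members were higher (JUN, JUND, FOSL1 and IER2) and 1 was lower (FOSL2), at an adjusted p under 0.05 in edgeR's quasi-likelihood test. The other 5 (JUNB, FOS, FOSB, EGR1 and KLF6) did not pass the test. Among all 17160 tested genes, 15.5% were called higher and 15.2% lower, 30.7% in either direction. All 10 members passed the low-count filter and were tested. FOSL1 passed it only through the 3 shNSD2 libraries, so it had to differ to be tested. The other 9 gave 3 higher and 1 lower, with a median log2 fold change of 0.05. With FOSL1 the median was 0.10, beside 0.01 over all tested genes. The 5 called members were also those whose CPM did not overlap between groups, 4 higher and 1 lower. Of all tested genes 24% were higher without overlap and 22.8% lower, 46.8% in all. Without shCTR 4, 3 members were higher and 1 lower, FOSL1 being lost. Over the whole table that fit called 4251 of 17756 tested genes higher and 4011 lower, against 2658 and 2605 with all 6 libraries. Leaving out any other library lowered both counts, and the list counts below are to be read beside these shifts.

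**Figure D1:**
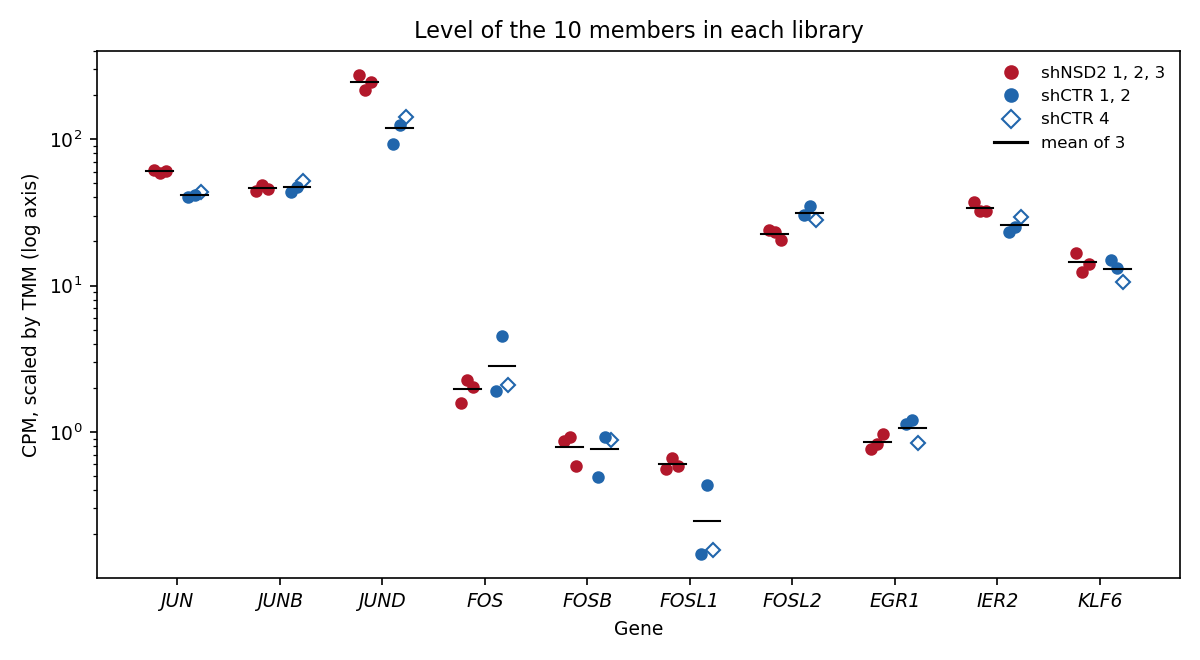
TMM-scaled CPM (log axis) of the 10 members in each library, shNSD2 in red to the left and shCTR in blue to the right, with shCTR 4 as an open diamond and bars at the mean of 3 libraries. JUND stood highest, at 216 to 276 CPM in shNSD2 and 92.2 to 142 CPM in shCTR, and FOS, FOSB, FOSL1 and EGR1 lay below 5 CPM in all 6 libraries.

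JUND (ENSG00000130522, chromosome 19 from 18279760 to 18281622 on GRCh38, minus strand) had the highest level of the 10. It was at 276, 216 and 247 CPM in shNSD2 libraries 1, 2 and 3, against 92.2, 125 and 142 CPM in shCTR libraries 1, 2 and 4. Every shNSD2 library was above every shCTR library, and shCTR 1 was the lowest. JUND averaged 246 ± 30.1 CPM in shNSD2 and 119 ± 25.1 CPM in shCTR (SD, n = 3 each). That was 2.06-fold higher (log2 fold change 1.04, SE 0.152, 95% interval 0.71 to 1.38, edgeR adjusted p = 0.00175). The exact two-sided permutation test over libraries reached p = 0.1 for JUND and for each other member without overlap, and 3 libraries a group cannot give a lower p. Without shCTR 4 the log2 fold change was 1.18 (edgeR adjusted p = 2.8e-06). Corrected for GC content and gene length, it was 0.67 (edgeR adjusted p = 0.00385).

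JUN (ENSG00000177606, chromosome 1 from 58780788 to 58784327, minus strand), the archetype of the family, was at 61.4, 58.8 and 60.4 CPM in shNSD2 libraries, against 40.5, 41.6 and 43.3 CPM in shCTR libraries 1, 2 and 4. The spread within each group was small, with a coefficient of variation of 2.22% in shNSD2 and 3.36% in shCTR. JUN averaged 60.2 ± 1.34 CPM in shNSD2 and 41.8 ± 1.40 CPM in shCTR (SD, n = 3 each). It rose 1.44-fold (log2 fold change 0.53, SE 0.0780, edgeR adjusted p = 0.00187), and stayed at 0.55 without shCTR 4 (adjusted p = 4.5e-05). JUN and JUND kept their call in all 16 alternatives run, with log2 fold changes of 0.42 to 0.55 for JUN and 0.67 to 1.19 for JUND.

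JUNB (ENSG00000171223, chromosome 19 from 12791496 to 12793315, plus strand) did not follow its paralogs past the test. Its levels of 44.1, 48.4 and 45.6 CPM in shNSD2 lay within the 43.2, 47.2 and 51.5 CPM of shCTR libraries 1, 2 and 4. The log2 fold change was -0.04, with a 95% interval of -0.24 to 0.16 (edgeR adjusted p = 0.766), and 0.03 without shCTR 4. With GC content and length corrected for, it was -0.34 and called lower (edgeR adjusted p = 0.0106). JUNB overlaps HOOK2 on the opposite strand. HOOK2 was at 123 ± 4.72 CPM in shNSD2 and 128 ± 11.0 CPM in shCTR (SD, n = 3 each), with log2 fold change -0.06 (edgeR adjusted p = 0.669; -0.12 without shCTR 4), and without a stated strand setting reads of the overlap cannot be told apart.

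FOSL2 (ENSG00000075426, chromosome 2 from 28392448 to 28417312, plus strand), which encodes the FRA-2 partner of JUN proteins, was the only called member that fell. It was at 24.1, 23.3 and 20.5 CPM in shNSD2 libraries, against 30.3, 35.2 and 28.2 CPM in shCTR libraries 1, 2 and 4, with no overlap. It averaged 22.6 ± 1.89 CPM in shNSD2 and 31.2 ± 3.57 CPM in shCTR (SD, n = 3 each). The log2 fold change was -0.47 (SE 0.109, edgeR adjusted p = 0.0110). It was -0.54 without shCTR 4 (adjusted p = 4.66e-04). The call was lost without shCTR 2 (-0.37, adjusted p = 0.0558) and without shNSD2 3 (-0.40, adjusted p = 0.0599).

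FOSL1 (ENSG00000175592, chromosome 11 from 65892049 to 65900573, minus strand) encodes FRA-1, a partner of JUN proteins linked to invasion in other carcinomas. It was close to the floor, with 11, 13 and 12 counts in shNSD2 libraries, against 3, 9 and 3 counts in shCTR libraries 1, 2 and 4. The summed counts were 36 in shNSD2 and 15 in shCTR, a ratio of 2.43 with an exact 95% interval of 1.30 to 4.77 that covers counting error only. The log2 fold change was 1.26 (SE 0.434, edgeR adjusted p = 0.0487), just under the threshold. FOSL1 passed the low-count filter in 3 shNSD2 and 0 shCTR libraries. Its interval and p-value thus come from counts already selected for that difference and give no separate support. With no low-count filter the edgeR adjusted p was 0.0767. The call was lost in 11 of the 15 alternatives that tested it, among them DESeq2 (adjusted p = 0.129), the fit without shCTR 4 (1.03, adjusted p = 0.0911) and the fit without shCTR 1 (0.98, adjusted p = 0.166).

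FOS (ENSG00000170345, chromosome 14 from 75278774 to 75282230, plus strand), the classical partner of JUN, had 31, 44 and 42 counts in shNSD2 libraries, against 39, 94 and 40 counts in shCTR libraries 1, 2 and 4. Only shCTR 2 stood above the rest. FOS was at 1.96 ± 0.346 CPM in shNSD2 and 2.84 ± 1.47 CPM in shCTR (SD, n = 3 each), and its log2 fold change was -0.54 with a 95% interval of -1.26 to 0.18 (edgeR adjusted p = 0.229). Without shCTR 2 it was -0.03 (adjusted p = 0.953) and without shCTR 4 it was -0.72 (adjusted p = 0.0604). FOSB (ENSG00000125740, chromosome 19 from 45467995 to 45475179, plus strand), a close homolog of FOS, had 17, 18 and 12 counts in shNSD2 libraries and 10, 19 and 17 counts in shCTR libraries 1, 2 and 4. Its log2 fold change was 0.05 with a 95% interval of -0.68 to 0.78 (edgeR adjusted p = 0.923), and 0.16 without shCTR 4. On the fold scale the interval ran from 0.623 to 1.72, so changes within that range were not excluded. FOSB overlaps ERCC1, a DNA repair gene on the opposite strand, which was higher (log2 fold change 0.48, edgeR adjusted p = 0.0105; 0.56 without shCTR 4).

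EGR1 (ENSG00000120738, chromosome 5 from 138465490 to 138469315, plus strand) was barely expressed in these serum-fed cells, with 15, 16 and 20 counts in shNSD2 libraries, against 23, 25 and 16 counts in shCTR libraries 1, 2 and 4. It averaged 0.852 ± 0.106 CPM in shNSD2 and 1.05 ± 0.195 CPM in shCTR (SD, n = 3 each), and its log2 fold change was -0.31 with a 95% interval of -0.90 to 0.28 (edgeR adjusted p = 0.397), and -0.45 without shCTR 4. The groups overlapped through shCTR 4. IER2 (ENSG00000160888, chromosome 19 from 13150415 to 13154908, plus strand) was at 37.5, 32.5 and 32.3 CPM in shNSD2 libraries, against 23.3, 24.97 and 29.2 CPM in shCTR libraries 1, 2 and 4. It rose with a log2 fold change of 0.40 (SE 0.108, edgeR adjusted p = 0.0196), or 0.50 without shCTR 4 (adjusted p = 5.87e-04). The call was lost without shCTR 1 (adjusted p = 0.061), shCTR 2 (0.0777), shNSD2 1 (0.0772) or shNSD2 3 (0.0503). It was also lost with GC content and length corrected for, at a log2 fold change of 0.21 (adjusted p = 0.12).

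KLF6 (ENSG00000067082, chromosome 10 from 3775996 to 3785281, minus strand) was at 16.7, 12.3 and 14.1 CPM in shNSD2 libraries, against 14.9, 13.2 and 10.6 CPM in shCTR libraries 1, 2 and 4, and the groups overlapped. Its log2 fold change was 0.16 with a 95% interval of -0.18 to 0.49 (edgeR adjusted p = 0.449), and 0.03 without shCTR 4.

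**Figure D2:**
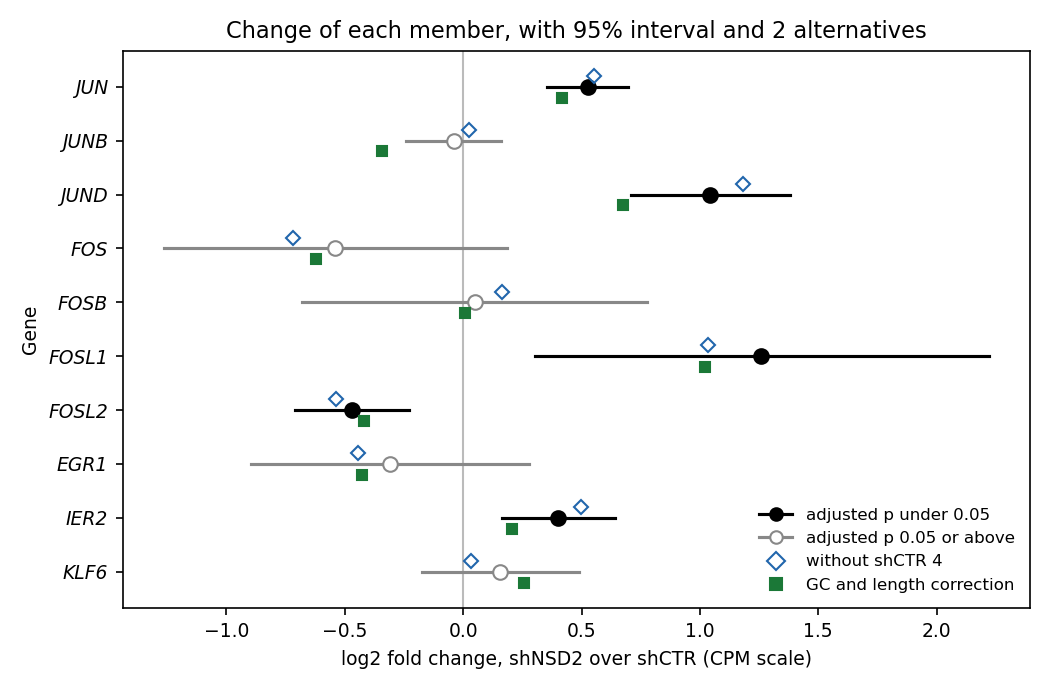
Log2 fold change of each member, shNSD2 over shCTR, with its 95% interval (edgeR, n = 3 each). Filled circles passed an adjusted p of 0.05, diamonds give the fit without shCTR 4 and squares the fit corrected for GC content and length. JUND (1.04) and JUN (0.53) stayed to the right in both alternatives, FOSL2 (-0.47) stayed to the left, and JUNB moved to -0.34 after the correction.

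Compared per length, as CPM per kilobase of merged exons, the members spanned a wide range of levels. In shNSD2 the order ran from JUND (132 ± 16.2), JUNB (25.3 ± 1.20), JUN (17.01 ± 0.378) and IER2 (11.1 ± 0.951) through FOSL2 (3.16 ± 0.265) and KLF6 (2.34 ± 0.356) to FOS (0.605 ± 0.107), FOSL1 (0.320 ± 0.0299), EGR1 (0.272 ± 0.0337) and FOSB (0.143 ± 0.0330), each in CPM per kilobase (SD, n = 3). In shCTR the first 7 places were the same, followed by EGR1 (0.336 ± 0.0622), FOSB (0.138 ± 0.0429) and FOSL1 (0.130 ± 0.0864). Neighbours in that order overlapped only for FOSL1 and EGR1 in shNSD2 and for FOSB and FOSL1 in shCTR. Among tested genes, JUND stood at the 98.6th percentile of level per length in shNSD2 and the 96.4th in shCTR. EGR1 stood at the 8.01st percentile in shNSD2 and the 9.35th in shCTR.

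Summed per length, transcripts of the JUN family reached 190, 159 and 175 CPM per kilobase in shNSD2 libraries, against 84.7, 104.5 and 116.5 in shCTR libraries 1, 2 and 4. Those of the FOS family came to 4.30, 4.47 and 3.90 CPM per kilobase in shNSD2 libraries, against 4.98, 6.71 and 4.83 in shCTR libraries. Neither sum overlapped between groups, beside 46.8% of all tested genes without overlap. The JUN family sum was higher in shNSD2 and the FOS family sum lower, with JUND and FOSL2 as their largest parts. Within the FOS family FOSL1 was higher. The ratio of JUN to FOS family transcripts was 44.0, 35.6 and 44.8 in shNSD2 libraries, against 16.99, 15.6 and 24.1 in shCTR libraries 1, 2 and 4.

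JUND made up 75.6% ± 2.64 of the JUN family sum in shNSD2 and 62.5% ± 3.61 in shCTR (SD, n = 3 each). JUNB made up 14.6% ± 1.996 in shNSD2 and 25.7% ± 2.04 in shCTR, and JUN 9.79% ± 0.649 in shNSD2 and 11.8% ± 1.57 in shCTR. In the FOS family FOSL2 held the largest share in both groups, with 74.7% ± 2.96 in shNSD2 and 79.9% ± 5.99 in shCTR. FOSL1 held 7.58% ± 0.580 in shNSD2 and 2.23% ± 1.04 in shCTR, a share that rests on the few counts given above. These sums are levels of transcript and carry no test, since they follow from the members' own values. They are not corrected for GC content or for its link with the change. That correction lowered the log2 fold change of JUND from 1.04 to 0.67, of JUN from 0.53 to 0.42 and of JUNB from -0.04 to -0.34. FOSL2, the largest FOS family part, moved from -0.47 to -0.42.

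**Figure D3:**
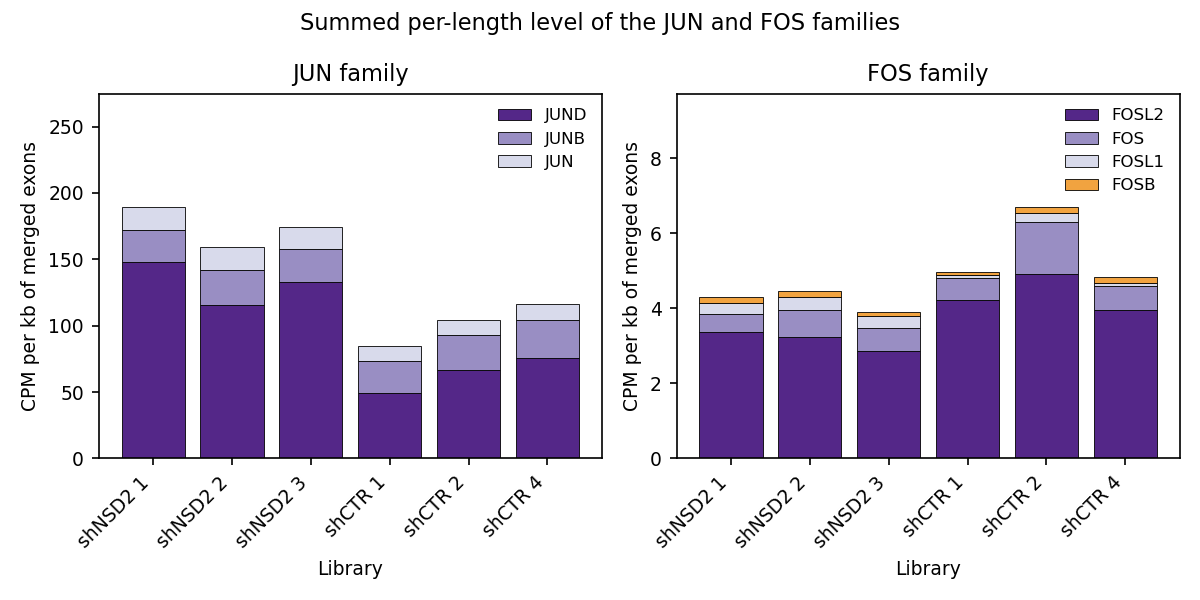
Stacked bars of the per-length level (CPM per kilobase of merged exons) of the JUN family, left, and the FOS family, right, in each library, shNSD2 before shCTR. The JUN family sum lay between 159 and 190 in shNSD2 and between 84.7 and 116.5 in shCTR, with JUND as the largest part in every library, and the vertical scales of the panels differ.

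GC content moved with the change over the whole table, and 9 of the 10 members lay above the median GC content of tested genes. KLF6, with 45.9% GC, was at the 40.2nd percentile, FOS at the 63.8th and FOSL2 at the 66.0th. The median log2 fold change was -0.12 for tested genes with a GC content under 40% and 0.24 for those of 65% or more, of which 35.3% were called higher. JUND, with 69.7% GC, stood at the 99.6th percentile of GC content, JUNB (64.9%) at the 96.2nd and IER2 (61.7%) at the 90.7th. JUND and JUN lay above the median of their own GC bins (0.24 and 0.09), as did IER2 and FOSL1 (0.16), whereas JUNB (-0.04) lay below the 0.16 of its bin and FOSL2 (-0.47) below 0.03. The part of GC content in these changes was not tested beyond the corrected values given above. JUN and JUNB have 1 exon in every annotated transcript, and the 224 tested protein-coding genes of that kind had a median log2 fold change of 0.02, beside 0.01 for those with several exons.

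**Figure D4:**
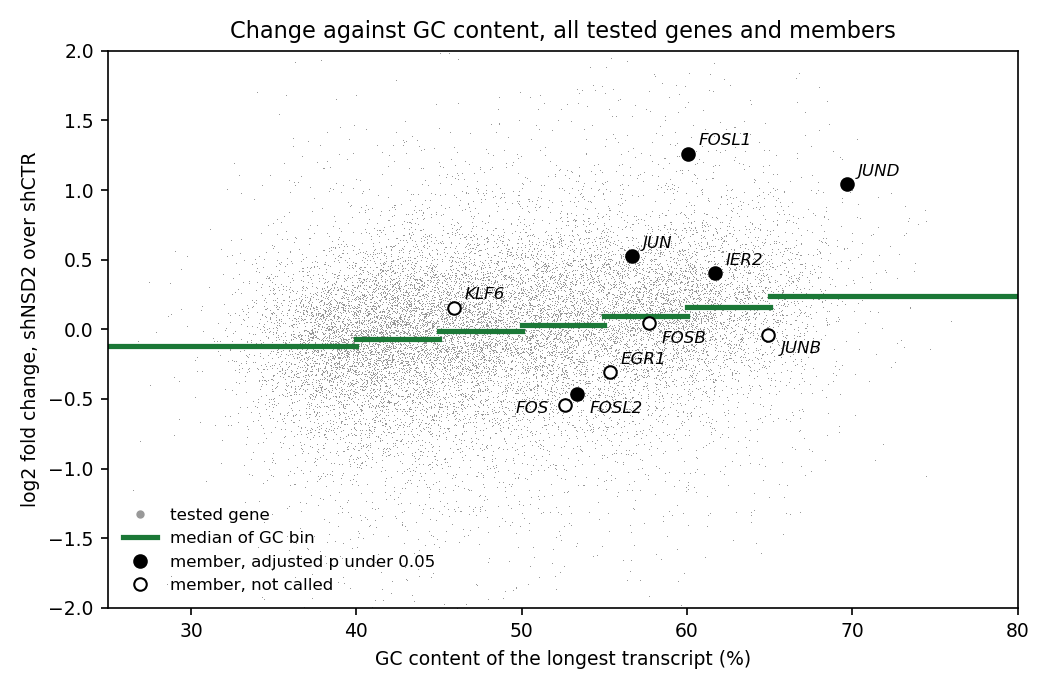
Log2 fold change, shNSD2 over shCTR, against the GC content of the longest transcript for tested genes (grey dots), with the median of each GC bin in green and members as circles, filled where the adjusted p was under 0.05. The medians climb with GC content to 0.24, with JUND at 1.04 in the last bin, and 143 genes beyond 2 on the log2 scale are not drawn.

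Short-lived immediate early transcripts often carry the pentamer ATTTA in their 3′ untranslated region. FOS had 5 copies in 806 bases, at the 95.6th percentile of density among 12441 tested genes with at least 100 bases of such sequence. JUNB had 2 copies in 500 bases (84.9th percentile) and JUN 3 in 1287 bases (61.6th percentile). JUND had 1 copy in 681 bases (45.9th percentile), FOSL2 had 9 in 4864 bases (53.1st percentile), and IER2 had 0 in 1050 bases. Called and uncalled members thus both included transcripts with several copies.

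Other basic leucine zipper genes that can pair with JUN or FOS were mostly higher where they changed. Of 12 tested (15 listed), 7 were called higher and 0 lower by edgeR, with a median log2 fold change of 0.33, beside 0.01 over all tested genes. The called share was 58.3%, beside 30.7% of all tested genes. CREB5, at 12 counts in each shNSD2 library, passed the filter only through that group, and MAFA had 1 shCTR library over it. Leaving out CREB5 gives 6 higher, 0 lower and a median of 0.27. When 3 libraries had to reach 1 CPM, edgeR called 5 higher and 0 lower. The GC and length correction gave 5 higher and 1 lower, as did the replicate block. At an unadjusted p under 0.05, 7 were higher and 2 lower. DESeq2 called 4 higher and 0 lower, limma-voom 7 and 0, and without shCTR 4 the counts were 7 and 1. ATF3, a stress-induced factor that pairs with JUN proteins, was at 60.02, 53.7 and 56.7 CPM in shNSD2 libraries, against 25.9, 26.7 and 34.6 CPM in shCTR libraries 1, 2 and 4 (log2 fold change 0.97, SE 0.116, edgeR adjusted p = 7.54e-04). The groups did not overlap, and shCTR 4 was the highest control. JDP2, a repressor that dimerises with JUN proteins, averaged 47.4 ± 2.90 CPM in shNSD2 and 30.9 ± 5.56 CPM in shCTR (SD, n = 3 each; log2 fold change 0.62, edgeR adjusted p = 0.00553). MAFK, a small MAF protein, rose by 0.38 on the log2 scale (adjusted p = 0.0105), or by 0.23 with GC content and length corrected for, where it lost its call (adjusted p = 0.0516). NRL, a MAF family factor known from retina, was low, at 2.26 ± 0.192 CPM in shNSD2 and 1.19 ± 0.0503 CPM in shCTR (adjusted p = 0.00906).

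Of 36 tested immediate early genes outside the 10 members, 8 rose and 8 fell, with a median log2 fold change of 0.09. The called share was 44.4%, beside 30.7% of all tested genes. Without shCTR 4, 9 were higher and 12 lower, in a fit that also called more genes over the whole table (4251 higher and 4011 lower). Lower calls numbered 5 without shCTR 1 or shNSD2 1, 4 without shCTR 2 or shNSD2 3, and 3 without shNSD2 2. Higher calls numbered 5 without shNSD2 1 or shNSD2 3. The 4 genes of smallest p were ATF3, described above, and 3 that fell. CITED2, a transcriptional co-regulator, was at 24.5, 27.6 and 24.1 CPM in shNSD2 libraries, against 48.8, 48.2 and 41.6 CPM in shCTR libraries 1, 2 and 4 (log2 fold change -0.86, edgeR adjusted p = 6.09e-04). PLK2, a polo-like kinase gene, averaged 15.0 ± 0.340 CPM in shNSD2 and 26.5 ± 1.71 CPM in shCTR (-0.82, adjusted p = 6.09e-04). PHLDA1, a pleckstrin homology domain gene, averaged 16.1 ± 1.47 CPM in shNSD2 and 26.9 ± 2.94 CPM in shCTR (-0.74, adjusted p = 0.00201; SD, n = 3 each, edgeR).

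The relatives of EGR1 were little expressed. EGR2 had at most 1 count and EGR3 at most 9 counts in any library, too few to be tested. Of the 2 tested genes of this list, NAB1 and NAB2, 1 was lower and 0 were higher by edgeR, at an adjusted or an unadjusted p under 0.05, with 1 lower and 1 higher without shCTR 4. NAB1, a corepressor of EGR proteins, fell to 1.996 ± 0.264 CPM in shNSD2, against 3.88 ± 0.670 CPM in shCTR (SD, n = 3 each; log2 fold change -0.96, edgeR adjusted p = 0.00685). NAB2, the other corepressor and itself an EGR1 target, was at 14.0 ± 1.17 CPM in shNSD2 and 12.0 ± 1.35 CPM in shCTR (0.23, adjusted p = 0.161), and was called higher without shCTR 4 (0.33, adjusted p = 0.0313). Among 12 tested relatives of KLF6 (16 listed, median log2 fold change 0.06), 1 was called higher and 0 lower by edgeR. The called share was 8.33%, beside 30.7% of all tested genes. At an unadjusted p under 0.05 these were 2 and 0, by limma-voom 0 and 0, and without shCTR 4 they were 2 and 0. The gene called by edgeR was KLF7 (log2 fold change 0.29, edgeR adjusted p = 0.0491), whose call was lost in 10 of its 16 alternatives. DESeq2 also called 1 higher and 0 lower, but that gene was KLF4 (0.53, DESeq2 adjusted p = 0.0451).

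Genes that act upstream of AP-1 changed both ways, 8 of 34 tested rising and 4 falling, with a median log2 fold change of -0.01. The called share was 35.3%, beside 30.7% of all tested genes. Without shCTR 4, 10 were higher and 8 lower, in a fit that also called more genes over the whole table. Higher calls numbered 4 without shCTR 1 or shNSD2 2, 3 without shNSD2 3, and 2 without shCTR 2 or shNSD2 1. Lower calls numbered 2 without shNSD2 3, and 7 with the replicate block. MAPK3, which encodes the kinase ERK1, averaged 64.4 ± 5.27 CPM in shNSD2 and 46.0 ± 3.93 CPM in shCTR (SD, n = 3 each; log2 fold change 0.48, edgeR adjusted p = 0.00584). RPS6KA1, the RSK1 kinase downstream of ERK, rose by 0.39 (adjusted p = 0.0112), a call lost without shNSD2 1 (0.33, adjusted p = 0.0513), whereas RPS6KA3, the related RSK2, had a log2 fold change of -0.55 (adjusted p = 0.00417). MKL2, a coactivator of serum response factor, averaged 58.2 ± 4.05 CPM in shNSD2 and 88.1 ± 13.3 CPM in shCTR (-0.60, adjusted p = 0.00487).

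Among known AP-1 targets 3 of 18 tested genes rose and 4 fell, with a median log2 fold change of -0.11, and 18 of the 36 listed were not tested. The called share of 38.9% compares with 30.7% of all tested genes, of which 15.5% were higher and 15.2% lower. Without shCTR 4, where calls rose over the whole table, 5 rose and 5 fell. Without shNSD2 1, 2 fell. The replicate block gave 5 higher and 4 lower. The metallothionein gene MT2A was at 123, 94.8 and 107 CPM in shNSD2 libraries, against 28.8, 41.0 and 37.2 CPM in shCTR libraries 1, 2 and 4 (log2 fold change 1.60, edgeR adjusted p = 1.99e-04). HMGA1, a chromatin architectural gene, rose by 0.59 (adjusted p = 0.00625), VEGFA, an angiogenic factor, by 0.65 (adjusted p = 0.00731), and the DNA methyltransferase gene DNMT1 had a log2 fold change of -0.54 (adjusted p = 0.00302). Metallothionein copies are similar in sequence, so reads of MT2A may be split among them. Of 9 tested EGR1 targets 3 rose and 2 fell, a called share of 55.6%, beside 30.7% of all tested genes. Without shCTR 4 these were 4 and 3, in the fit with more calls over the table. PDGFA, a growth factor, averaged 11.2 ± 1.23 CPM in shNSD2 and 6.54 ± 0.891 CPM in shCTR (SD, n = 3 each; 0.77, edgeR adjusted p = 0.00437). The matrix genes FN1 (-3.07, adjusted p = 4.75e-04) and THBS1 (-2.65, adjusted p = 0.00117) fell, and VEGFA is in both target lists.

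**Figure D5:**
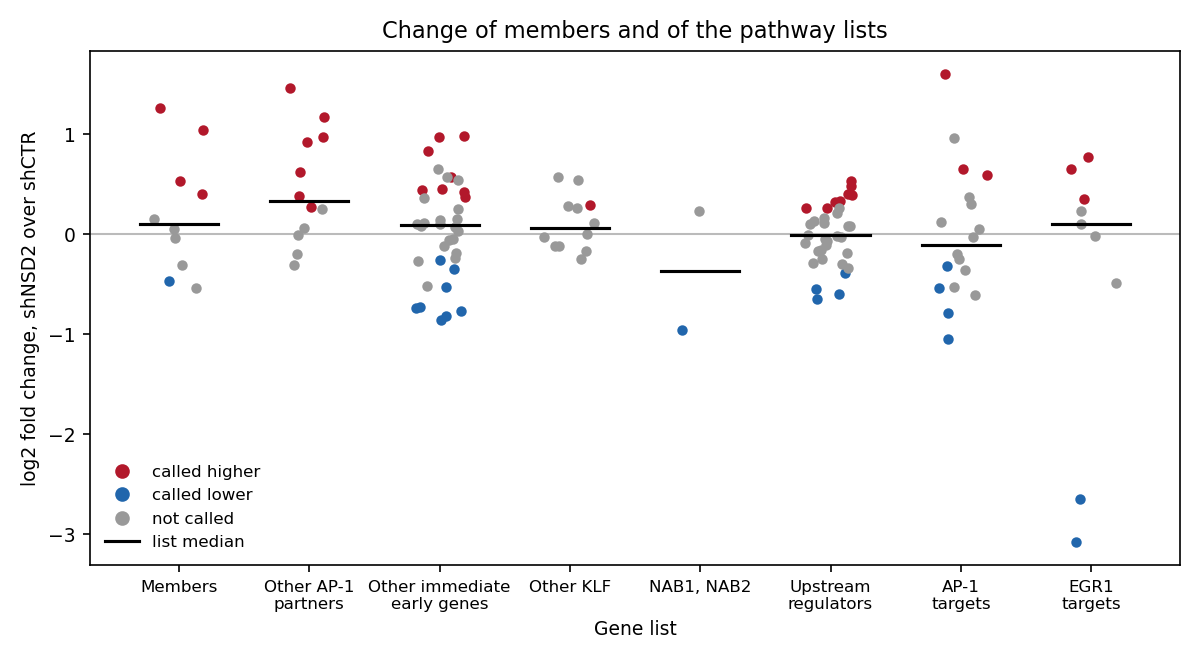
Log2 fold change, shNSD2 over shCTR, of the 10 members and of the tested genes of 7 pathway lists, red where called higher, blue where called lower and grey where not called, with bars at list medians. Of the other AP-1 partners 7 of 12 were called higher, or 6 of 11 without CREB5, which passed the filter only through shNSD2. Of the other immediate early genes 8 rose and 8 fell. Among all tested genes 15.5% were called higher and 15.2% lower.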

How the data were processed

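The study deposited raw read counts per gene, with no normalization, judged from whole numbers with different totals. CASAVA 1.8.2, STAR 2.6.0a and GRCh38 are named in the submitters' processing notes, while the counting program, its annotation and strand setting were not given in the sources used here. The test was the quasi-likelihood test of edgeR 4.0.16 under R 4.3.3, after filterByExpr and TMM, with Benjamini-Hochberg adjustment over 17160 tested genes and a threshold of 0.05. CPM values are scaled by TMM, and a standard error is the size of the log2 fold change over the square root of F. GENCODE 29 gave coordinates, exon lengths and base composition, and RefSeq the promoters. The fit was tested on simulated counts in which only better-expressed genes were changed, with a common dispersion and no GC trend. That test does not cover members with few counts or the link of change with GC content. The members and lists were chosen with earlier results of these data known. Named are all members, NSD2, up to 4 called genes of smallest p in each list, and tested NAB genes. Alternatives were other scalings, DESeq2 1.42.0, limma-voom (limma 3.58.1), other filters, robust dispersion, a replicate block, a GC and length correction, and each library left out.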

Additional observations from a re-analysis of the deposited data

How the results depend on the processing

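JUN and JUND kept direction and call in the 16 alternatives run. After the GC and length correction 2 members were called higher (JUN and JUND) and 2 lower (FOSL2 and JUNB), with the cause of the shift not tested further. Over the whole table that fit called 2827 genes higher and 2471 lower of 17111 tested. Leaving out each library in turn gave 2 to 3 members higher and 0 to 1 lower. By edgeR 0 were lower without shCTR 2 and without shNSD2 3, where FOSL2 kept its sign and 1 member was lower at an unadjusted p under 0.05. Over the whole table such fits called 1116 to 4251 genes higher and 1320 to 4011 lower, and each leaves a group with fewer libraries. The highest counts came without shCTR 4. The replicate block rests on numbers 1 and 2, which both groups share. It called 3 members higher and 1 lower, and 3242 and 3001 genes over the table. Same-numbered libraries deviated from their group means with r = 0.0441 and -0.176, and the labels do not say that numbers pair libraries. FOSL1, FOSB and EGR1 were not tested with at least 1 CPM in 3 libraries. Lengths of the longest transcript left the order of members by level as it was, but moved shares within the FOS family. In shNSD2 the mean FOSL2 share went from 74.7% to 69.5% and the FOS share from 14.4% to 18.8%. The mean ratio of JUN to FOS family transcripts went from 41.47 to 36.15 in shNSD2 and from 18.89 to 16.52 in shCTR. FOSB, FOSL1 and EGR1 had at most 25 counts in a library, which limits the change detectable in them.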
